A study of Mus musculus with 45 samples.

Results

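The 10 genes Lgr5, Olfm4, Ascl2, Smoc2, Axin2, Rnf43, Znrf3, Slc12a2, Prom1 and Cd44 were followed as markers of intestinal stem cells and targets of Wnt signalling in tuft cell libraries. They were taken by name from the 47729 genes of the count and TPM tables, and all 10 of the 10 passed the filter on low counts that left 14020 genes for testing. The libraries were bulk RNA-seq of small intestinal cells from single male C57BL/6J mice, labelled as sorted EpCAM+CD45+ Siglec-F+ cells enriched for tuft cells, and amplified by the Smart-seq2 protocol. The methods give this gate too, but elsewhere state that CD45 served to leave out cells carrying it, so that the CD45 gate is uncertain. The mice were kept at thermoneutrality and ate either a low-fat reference diet (RFD, 10% fat) or a high-fat diet (HFD, 60% fat). The short set held 11 libraries on RFD and 11 on HFD after 9 weeks of feeding, and the long set held 11 on RFD and 12 on HFD after 22 weeks. The labels write 9 weeks for all 45 libraries and the methods give 22 weeks for the long set, so that time and set cannot be told apart. Expression is given as CPM, the reads of a gene relative to a fixed library total after TMM scaling between libraries. Diets were compared within each set by the quasi-likelihood test of edgeR, and p-values were adjusted after Benjamini and Hochberg over all genes tested, with 0.1 as the threshold.

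Stem cells at the base of the small intestinal crypt divide to renew the epithelium and are kept by Wnt ligands and R-spondins from neighbouring cells, Paneth cells among them. A Wnt ligand bound to Frizzled and Lrp receptors stops the destruction of β-catenin, which then enters the nucleus and activates target genes together with TCF factors. Lgr5 encodes a receptor for R-spondins and Ascl2 a transcription factor of the same cells, while Axin2, Rnf43 and Znrf3 are targets whose products dampen the signal. Tuft cells are differentiated chemosensory cells that arise from these stem cells. In bulk samples, fewer cells of a type and less RNA per cell cannot be told apart.

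Libraries held between 189340 and 4690213 reads on genes, and 2 libraries of the short set (RFD mouse 40 and HFD mouse 50) had under 500000 reads. The tuft markers Dclk1 (33.8 to 2950 CPM) and Trpm5 (47.3 to 5650 CPM) were present in every library. The tuft cytokine gene Il25 had 0 CPM in 1 RFD and 2 HFD libraries of the short set, and in 1 library of each diet in the long set. Epcam ranged from 334 to 1560 CPM, Siglecf from 25.9 to 2070 CPM and Ptprc, which encodes CD45, from 2.25 to 328 CPM. Some libraries nevertheless stood apart from the label. In HFD mouse 80 of the short set, 8 Paneth cell markers took 32.8% of the reads, and the sum over 17 tuft markers was 387 CPM, against a group median of 7364 CPM. Paneth markers took 23.9% of the reads in HFD mouse 70 and 17.7% in HFD mouse 8 of the same group, and 10.5% in RFD mouse 20. They took 7.03% in RFD mouse 10 and 6.93% in HFD mouse 60. RFD mice 10, 20 and 40 of the short set had tuft sums of 4259, 4281 and 4450 CPM, against a group median of 17710 CPM. In the long set Paneth markers took 13.2% in HFD mouse 7, 5.3% in HFD mouse 6 and 4.93% in RFD mouse 1. HFD mouse 6 also had the lowest tuft sum of its group, 1205 CPM against a median of 15560 CPM, and the highest enterocyte sum, 42030 CPM. RFD mouse 3 of the long set had the highest sum of 12 enterocyte markers in its group, 38130 CPM against a median of 18580 CPM. Fits without single libraries are given beside the results of the 10 genes that they changed most.

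The sequence before the transcription start is shown for Olfm4, the member with the largest difference between the diets at 9 weeks, and for the Wnt target Axin2 and the stem cell factor Ascl2, which varied together with it between libraries. From the RefSeq table of GRCm38.p6, 8 windows were searched, which belong to 6 of the 10 genes, Olfm4, Ascl2, Axin2, Rnf43, Prom1 and Cd44. The remaining genes of the list were not searched, so that nothing is said about their windows. The 250 bases before the start were searched on both strands for CTTTGA, the core of TCF and LEF sites, for CAGCTG, an E-box bound by factors of the Ascl2 class, and for the consensus of NF-kB, which was added after the Olfm4 window had been read. Capitals mark matches.
Olfm4, chr14:80000052-80000301, plus strand: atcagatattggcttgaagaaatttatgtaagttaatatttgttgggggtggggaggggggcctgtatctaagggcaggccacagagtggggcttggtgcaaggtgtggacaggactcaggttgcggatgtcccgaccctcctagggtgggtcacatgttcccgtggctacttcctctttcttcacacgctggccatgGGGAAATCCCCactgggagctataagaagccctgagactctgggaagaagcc
Axin2, chr11:108920099-108920348, plus strand: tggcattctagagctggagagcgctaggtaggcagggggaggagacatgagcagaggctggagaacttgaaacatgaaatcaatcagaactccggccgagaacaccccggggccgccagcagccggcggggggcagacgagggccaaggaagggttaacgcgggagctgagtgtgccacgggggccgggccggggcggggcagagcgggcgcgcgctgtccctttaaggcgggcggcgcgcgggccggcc
Ascl2, chr7:142969265-142969514, minus strand: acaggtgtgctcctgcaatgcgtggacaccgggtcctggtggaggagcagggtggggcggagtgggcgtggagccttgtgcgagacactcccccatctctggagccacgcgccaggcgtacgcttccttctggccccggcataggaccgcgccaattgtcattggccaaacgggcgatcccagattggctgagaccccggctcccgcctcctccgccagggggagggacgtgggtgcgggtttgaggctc
The Olfm4 window held 2 overlapping matches to the NF-kB consensus, which begin 52 and 51 bases before the start, and 3.9% of the 32851 windows of this length held that motif. None of the 8 windows held CTTTGA or CAGCTG, which occurred in 13.8% and 13% of all windows. The Olfm4 window lies inside the span annotated for the gene, from 79984081 to 80023139 on chromosome 14, because a longer annotated form begins further upstream.

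Per transcript length, Olfm4 was the most abundant of the 10 genes and Znrf3 the least. Over the 45 libraries the median was 139 TPM for Olfm4 and 54.8 TPM for Prom1, a membrane protein of stem and progenitor cells, and Olfm4 was above Prom1 in 31 of 45 libraries. Lgr5 followed with 20 TPM and Smoc2 with 16 TPM, and the order of these neighbours was open, since Lgr5 was the higher one in 22 of 45 libraries. Ascl2 (6.25 TPM), Rnf43 (5.75 TPM), Slc12a2 (3.25 TPM), Axin2 (2.81 TPM), Cd44 (2.26 TPM) and Znrf3 (1.62 TPM) came after them, and the interquartile ranges of neighbours in this order overlapped. The order changed with the group. In RFD libraries of the long set Prom1 had a median of 54.3 TPM and Olfm4 36.9 TPM, whereas in HFD libraries of the short set Olfm4 had 614 TPM and Smoc2 53.8 TPM, next to 47.8 TPM for Prom1.

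After 9 weeks, Olfm4 and Smoc2 were higher on HFD, and the other 8 genes did not pass the threshold. Olfm4 was 4.14-fold and Smoc2 3.26-fold higher. The log2 fold change was above 0 for 10 of the 10 genes, against 47.3% of all genes tested, with a median of 0.90 against -0.05 over all genes. This median was 0.399 with limma on log2(TPM + 1) and 0.352 with a covariate of cell type markers, both described below. In each of these fits 8 of the 10 genes were above 0. Called as higher were 2 of 10 genes, against 2.00% of all genes in that direction and 3.32% in both directions, and an unadjusted p under 0.05 in that direction was found for 4 of 10 genes, against 9.73% of all genes. The 10 genes are not independent of each other, as shown by their covariation between libraries. They and the other lists below were chosen with earlier results of these data known, so that shares set against all genes only describe them.

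**Figure D1:**
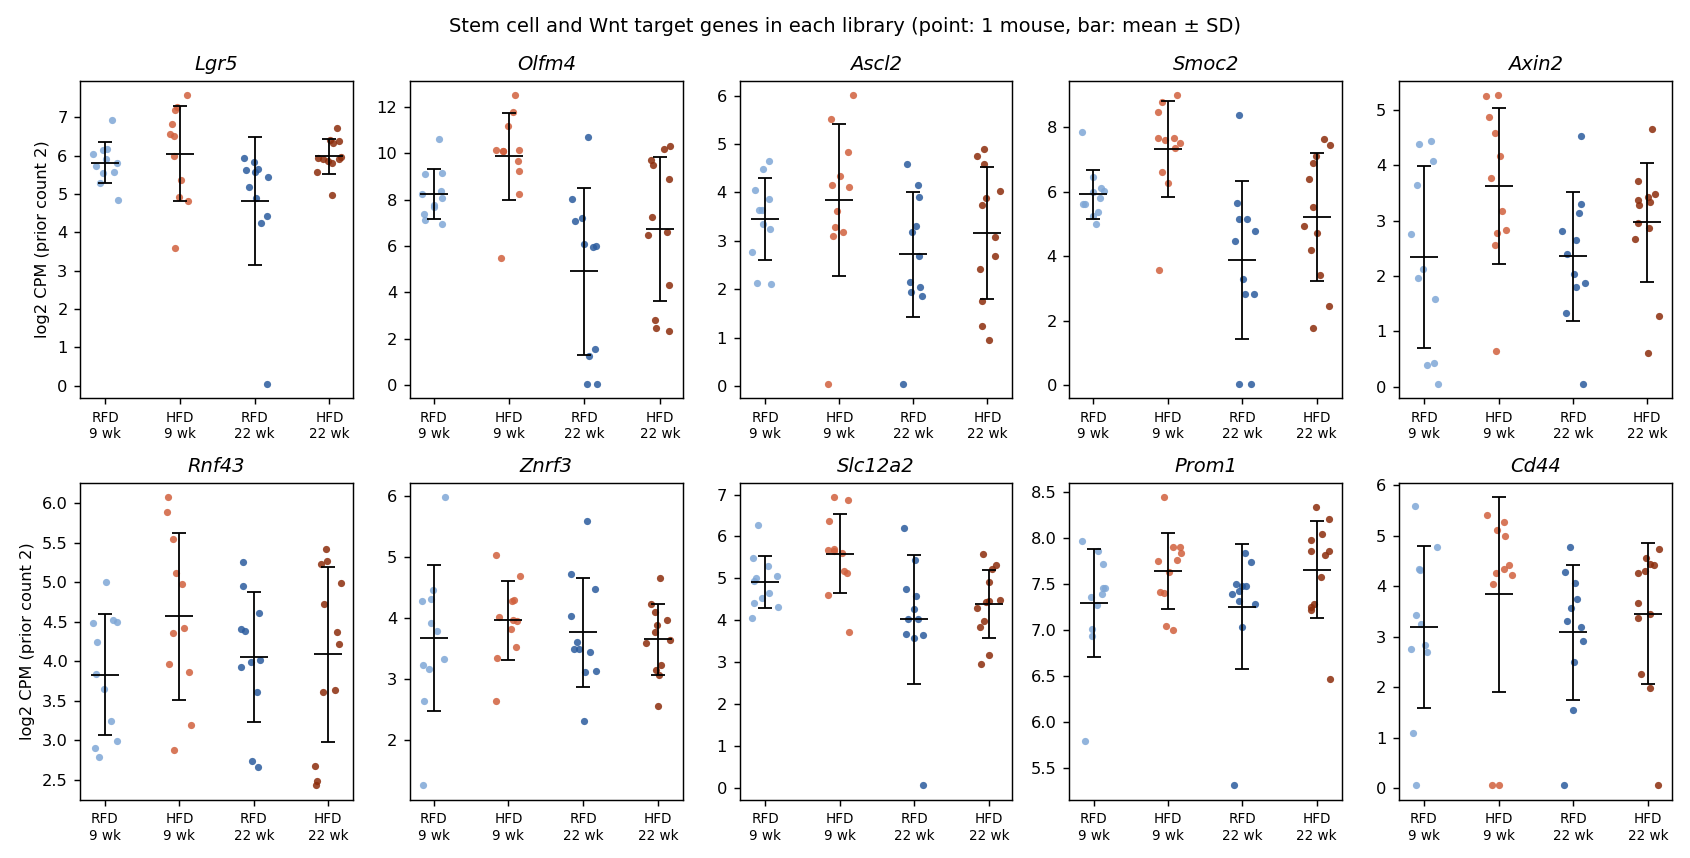
Level of each of the 10 genes (log2 CPM, vertical axis) in the 4 groups; each point is 1 library from 1 mouse and the bars are the mean ± SD of 11 or 12 libraries. Olfm4 and Smoc2 sat higher on HFD than on RFD at 9 weeks, and at 22 weeks 1 RFD library was above all HFD libraries for both genes.

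Olfm4 encodes a secreted glycoprotein that marks crypt base stem cells. In the short set it ranged from 122 to 1588 CPM on RFD (median 264.5, 405 ± 421 SD, n = 11) and from 43.9 to 5797 CPM on HFD (median 1100, 1621 ± 1685 SD, n = 11). The HFD maximum came from mouse 80, whose TMM factor of 0.5399 raises its CPM. Per transcript length this mouse had 734.5 TPM of Olfm4, below the 1024 TPM of HFD mouse 70. The groups overlapped at both ends, with HFD mouse 64 below every RFD mouse and RFD mouse 20 above 8 of the 11 HFD mice, while 10 of 11 HFD mice were above the RFD median. The log2 fold change was 2.05 (SE 0.59, 95% CI 0.82 to 3.28, adjusted p = 0.0848). Smoc2, a secreted matrix protein of the crypt base, ranged from 30.8 to 228 CPM on RFD (median 55.1, 69.7 ± 54.7 SD) and from 10.97 to 503 CPM on HFD (median 191, 219 ± 152 SD). RFD mouse 20 was the highest and HFD mouse 64 the lowest of its group for Smoc2 as well, and 10 of 11 HFD mice were again above the RFD median. Its log2 fold change was 1.71 (SE 0.44, 95% CI 0.81 to 2.604, adjusted p = 0.0662).

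Both calls depended on single libraries. With 1 library left out at a time, Olfm4 passed in 7 of 22 fits, with adjusted p from 0.0128 to 0.193, and Smoc2 passed in 13 of 22 fits, with adjusted p from 0.00552 to 0.131. Neither gene passed without RFD mouse 1, 21, 23, 24 or 84, or without HFD mouse 6, 8, 70 or 80, and Smoc2 passed without Olfm4 when RFD mouse 3, 4, 22 or 40, or HFD mouse 50 or 62, was left out. The lowest log2 fold changes came without HFD mouse 80, 1.56 for Olfm4 (adjusted p = 0.193) and 1.46 for Smoc2 (adjusted p = 0.131). The highest came without RFD mouse 20, 2.55 for Olfm4 (adjusted p = 0.0128) and 2.11 for Smoc2 (adjusted p = 0.00552), and Rnf43 and Slc12a2 then passed as well (adjusted p = 0.0974 and 0.0401). These were also the libraries with the highest Paneth marker sum on each diet, and without both of them Olfm4 had 2.07 (adjusted p = 0.0246) and Smoc2 1.86 (adjusted p = 0.0120). That fit still held HFD mice 70 and 8, with Paneth markers at 23.9% and 17.7% of the reads.

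Among the targets that dampen Wnt signalling, Rnf43 and Znrf3 encode ubiquitin ligases that remove Frizzled receptors from the surface, and Axin2 a scaffold of the complex that destroys β-catenin. Rnf43 ranged from 5.83 to 31.1 CPM on RFD (median 13.3) and from 6.27 to 66.5 CPM on HFD (median 20.3) at 9 weeks. Its log2 fold change was 1.07 (SE 0.39, p = 0.011, adjusted p = 0.153 from edgeR), with 9 of 11 HFD mice above the RFD median and 4 above every RFD mouse. Axin2 had few reads, 0 to 40 per library on RFD and 1 to 86 on HFD, and ranged from 0 to 20.8 CPM (median 3.33) and from 0.523 to 37.3 CPM (median 12.6). The RFD libraries of Axin2 were split between values near 0 and values close to those of HFD, and the log2 fold change of 1.11 had an SE of 0.63 (adjusted p = 0.362). For Znrf3 the medians were 12.8 CPM on RFD and 14.7 CPM on HFD, with a log2 fold change of 0.25 (95% CI -0.62 to 1.12, adjusted p = 0.817). The 2 ligases that act on the same receptors thus had point estimates of unequal size, and their difference was not tested.

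Ascl2 ranged from 3.26 to 23.9 CPM on RFD (median 11.4) and from 0 to 63.1 CPM on HFD (median 16.4), and its log2 fold change came to 0.88 (SE 0.51, adjusted p = 0.377). Lgr5 ranged from 27.5 to 121 CPM on RFD (median 55.1) and from 11.1 to 189 CPM on HFD (median 90.4), and its log2 fold change came to 0.58 (SE 0.34, adjusted p = 0.379). For Lgr5 the HFD libraries spread to both sides of the RFD libraries, with 3 above and 2 below every RFD mouse. The interval of the Lgr5 difference, -0.12 to 1.29, includes 0.

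Slc12a2 encodes a sodium, potassium and chloride cotransporter of crypt cells. It ranged from 15.6 to 76.2 CPM on RFD (median 29.4) and from 12.2 to 122 CPM on HFD (median 49.3), and its log2 fold change came to 0.87 (SE 0.34, p = 0.0152, adjusted p = 0.170 from edgeR). Cd44, a hyaluronan receptor, ranged from 0 to 46.7 CPM on RFD (median 8.42) and from 0 to 41.6 CPM on HFD (median 19.2). No HFD mouse was above every RFD mouse for Cd44, and its log2 fold change of 0.92 had an SE of 0.67 (adjusted p = 0.489). Prom1 had the tightest estimate of the 10 genes, 0.34 (95% CI -0.09 to 0.77, adjusted p = 0.412), from a mean of 166 CPM on RFD (SD 54.1) and 206 CPM on HFD (SD 61.1).

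**Figure D2:**
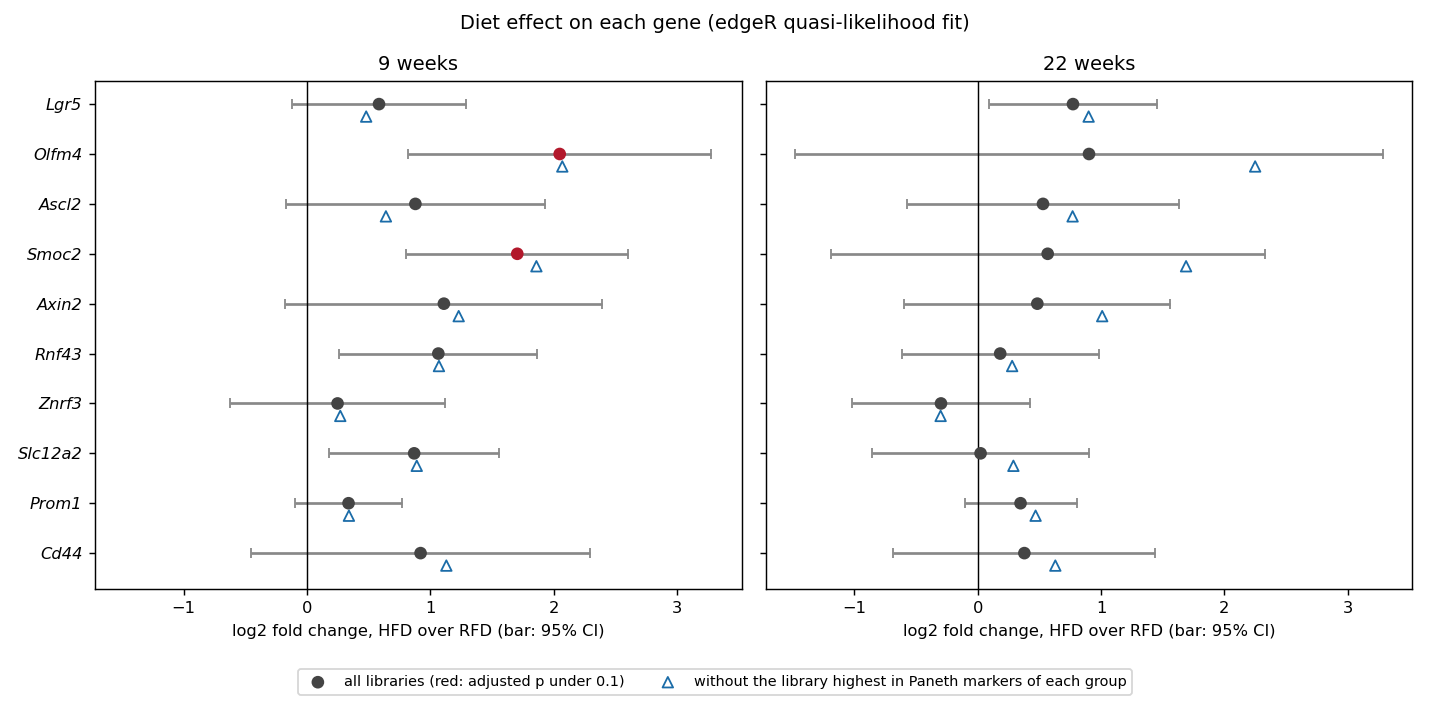
Log2 fold change of HFD over RFD (horizontal axis) for each gene at 9 weeks (left) and 22 weeks (right); circles are the fits on all libraries with 95% CI, red where the adjusted p was under 0.1, and triangles are the fits without the library highest in Paneth markers of each group. At 9 weeks all 10 circles lie to the right of 0 and 2 are red, and at 22 weeks the triangle of Olfm4 lies at 2.25, far from its circle at 0.90.

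After 22 weeks none of the 10 genes passed the threshold in edgeR, DESeq2 or limma, where 0.792% of all genes passed in edgeR. The log2 fold change was above 0 for 9 of 10 genes, against 47.9% of all genes tested, with a median of 0.43 against -0.03 over all genes. Only Lgr5 had an unadjusted p under 0.05, against 4.69% of all genes in that direction. Lgr5 ranged from 0 to 60.1 CPM on RFD (median 42.4, 36.9 ± 18.4 SD, n = 11) and from 30.2 to 104 CPM on HFD (median 60.1, 64.9 ± 19.5 SD, n = 12). All but 1 of the HFD mice, 11 of 12, were above the RFD median, and 6 of 12 were above every RFD mouse. The log2 fold change was 0.77 (SE 0.33, p = 0.0274, adjusted p = 0.420 from edgeR). Without RFD mouse 3, in which Lgr5 had 0 reads, it was 0.64 (adjusted p = 0.140).

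At 22 weeks the values of Olfm4 and Smoc2 depended on single libraries of both diets, most of all on RFD mouse 1. Olfm4 ranged from 0 to 1667 CPM on RFD (median 63.7) and from 3.93 to 1288 CPM on HFD (median 123, n = 12), and Smoc2 from 0 to 328 CPM on RFD (median 21.3) and from 2.36 to 198 CPM on HFD (median 37.3). RFD mouse 1 held the maximum of both genes, and the next RFD library had 258 CPM of Olfm4 and 49.1 CPM of Smoc2. It was also the highest RFD library for Ascl2, Axin2, Rnf43, Slc12a2 and Cd44, and for the sums of cell cycle genes (1901 CPM against a median of 222.5 CPM) and Paneth markers (39740 CPM against 1566 CPM). With it, the log2 fold change was 0.90 for Olfm4 (SE 1.147, adjusted p = 0.841) and 0.57 for Smoc2 (SE 0.85, adjusted p = 0.873). Without it, Olfm4 had 2.55 (adjusted p = 0.245) and Smoc2 1.98 (adjusted p = 0.172), and none of the 10 genes passed. Leaving out HFD libraries moved the values the other way. Without HFD mouse 6, which held the HFD maximum of Olfm4, Olfm4 had 0.55 (adjusted p = 0.955) and Smoc2 0.34 (adjusted p = 0.962), and without HFD mouse 7 they had 0.64 (adjusted p = 0.938) and 0.31 (adjusted p = 0.967). The libraries of each diet were split for Olfm4, with 4 RFD libraries at or under 1.87 CPM and 3 HFD libraries at or under 5.97 CPM, although others of the same groups had over 100 CPM.

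The remaining 7 genes had log2 fold changes from -0.30 to 0.53 at 22 weeks. Ascl2 had medians of 5.37 CPM on RFD and 9.93 CPM on HFD, and its log2 fold change came to 0.53 (SE 0.54, adjusted p = 0.796). Axin2 (0.48), Cd44 (0.38), Prom1 (0.35), Rnf43 (0.18) and Slc12a2 (0.02) had log2 fold changes above 0 with intervals that included 0. The value of Slc12a2 changed sign in 11 of the 23 fits with 1 library left out, which ranged from -0.12 (without HFD mouse 7) to 0.47 (without RFD mouse 1). Znrf3 was the single gene with a value below 0, -0.30 (95% CI -1.02 to 0.42, adjusted p = 0.828), and it reached 0.00 with 1 library left out. For Prom1, 6 of 12 HFD mice were above every RFD mouse, yet the log2 fold change of 0.35 was 1.27-fold and had an adjusted p of 0.623.

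The diet effect did not differ detectably between the sets for any of the 10 genes. The test of the difference, 22 weeks minus 9 weeks over all 45 libraries, gave an adjusted p of 1.00 for each, with 0 of 10 genes at an unadjusted p under 0.05, where 3.22% of all genes had one, and with 0 of 10 called by DESeq2 or limma. The smallest p belonged to Rnf43, with a difference of -0.84 on the log2 scale (SE 0.56, p = 0.142 from edgeR). Olfm4 had -1.12 (95% CI -3.76 to 1.53) and Smoc2 -1.10 (95% CI -3.07 to 0.87), so that large differences in either direction stay within the intervals. Without the library highest in Paneth markers of each group, the difference was 0.13 for Olfm4 and -0.21 for Smoc2. Among all genes tested, 0 passed this test in edgeR, 451 had an unadjusted p under 0.05, and DESeq2 called 0. A gene that passed at 9 weeks and not at 22 weeks was therefore not shown to differ between the times.

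Mice are numbered in 3 series (1 to 8, the multiples of 10, and other numbers from 21 to 64), each with 3 or 4 mice per diet and set, and 2 libraries belong to none of them. In the methods, the mice of each period were killed over 3 days in a row, with 1 cage per group on each day, and no mouse is assigned to a day. What the series stand for is not given. Within the series, the mean log2 CPM of Olfm4 on HFD minus that on RFD was 1.74, 1.85 and 0.58 at 9 weeks and 3.77, 0.19 and 0.99 at 22 weeks. The differences for Smoc2 were 1.56, 1.45 and 0.66 at 9 weeks, and 22 weeks gave 2.58, -0.95 and 1.70. Lgr5 had -0.25, 0.92 and 0.37 at 9 weeks and 1.91, 0.98 and 0.61 at 22 weeks. At 9 weeks 5 of the 10 genes (Olfm4, Smoc2, Axin2, Rnf43 and Slc12a2) were higher on HFD in all 3 series, and at 22 weeks 4 were (Lgr5, Olfm4, Axin2 and Prom1). With the series as a batch term, Smoc2 alone passed at 9 weeks, and Olfm4 had a log2 fold change of 1.76 (adjusted p = 0.105).

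Paneth cell markers and, less closely, goblet cell markers moved together with Olfm4 and Smoc2 between libraries. At 9 weeks the sum of 8 Paneth markers ranged from 62.9 to 116700 CPM on RFD (median 2970) and from 120 to 608800 CPM on HFD (median 29470), with 8 of 8 markers above 0 in log2 fold change (median 2.29) and 0 passing the threshold. Ang4, a Paneth cell ribonuclease with antimicrobial activity, had the smallest p (log2 fold change 3.13, adjusted p = 0.190). The sum of 17 tuft markers ranged from 4259 to 28060 CPM on RFD (median 17710) and from 387 to 26160 CPM on HFD (median 7364), with 1 of 17 markers above 0 in log2 fold change (median -0.97), 7 at an unadjusted p under 0.05 and 0 passing. Bmx, a tyrosine kinase of tuft cells, had the smallest p (-1.05, adjusted p = 0.201). The share of all genes lower at an unadjusted p under 0.05 was not computed. At 22 weeks the tuft sum had medians of 19830 CPM on RFD and 15560 CPM on HFD, and the Paneth sum 1566 and 11400 CPM. Over the 45 libraries after removal of the group means, Spearman's rho with the Paneth sum was 0.801 for Olfm4 and 0.708 for Smoc2, and with the tuft sum -0.498 and -0.504. With the goblet sum it was 0.416 and 0.475, with the enterocyte sum -0.299 and -0.352, and with the enteroendocrine sum 0.081 and 0.037. For the Paneth and tuft sums, Lgr5 had 0.154 and 0.281, and Prom1 -0.027 and 0.182. With the enterocyte sum, Lgr5 had -0.507 and Prom1 -0.404. These are descriptions over libraries that differ in depth and cell content.

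**Figure D3:**
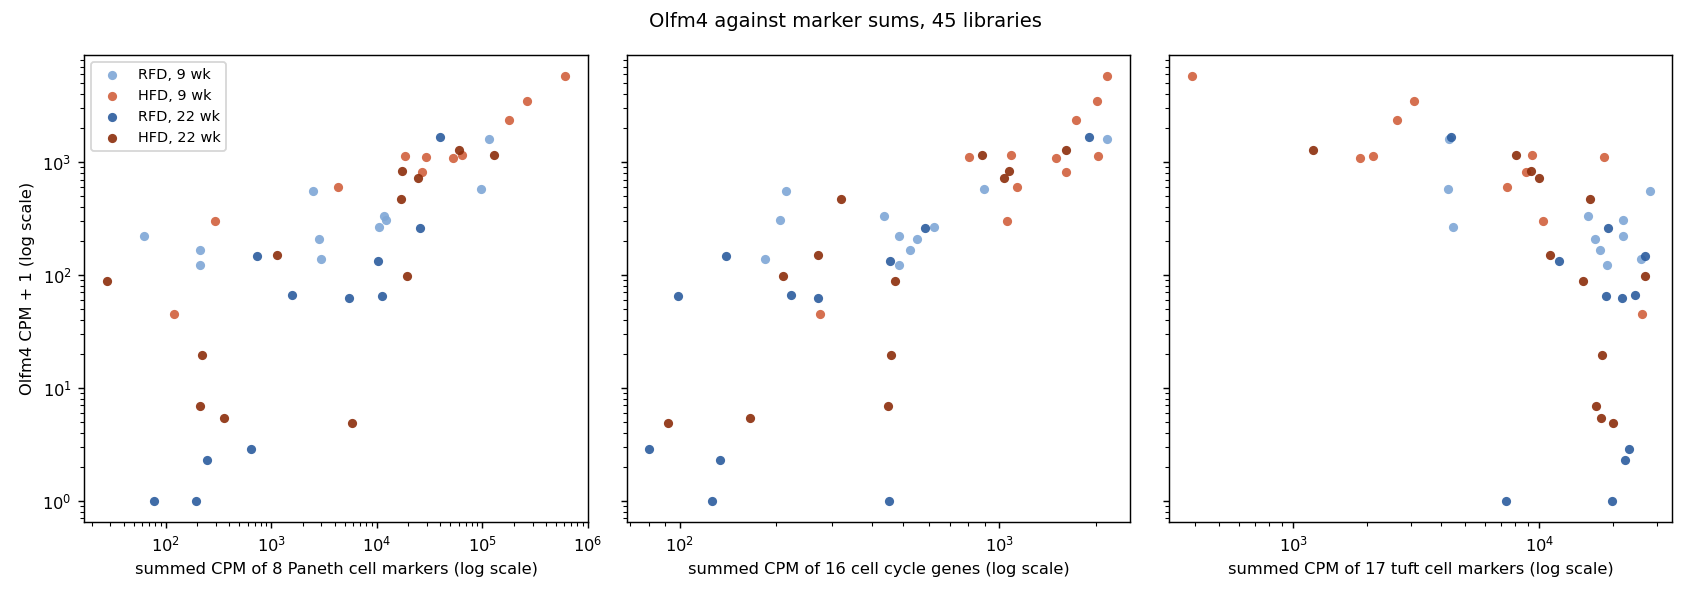
Olfm4 (CPM + 1, vertical log axis) against the summed CPM of Paneth markers, cell cycle genes and tuft markers (horizontal log axes) in 45 libraries coloured by group. The library with the highest CPM of Olfm4, 5797, also had the highest Paneth sum, 608800 CPM, and the lowest tuft sum, 387 CPM. Its TMM factor was 0.5399, which raises its CPM, and its Olfm4 was 734.5 TPM.

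With the difference between tuft markers and the markers of enterocytes, goblet, Paneth, enteroendocrine and T cells as a covariate, none of the 10 genes passed at 9 weeks, and the unadjusted p was under 0.05 for 1 of them. Olfm4 then had a log2 fold change of 0.82 (adjusted p = 0.666) and Smoc2 0.86 (adjusted p = 0.342), and Ascl2 (-0.16) and Znrf3 (-0.18) turned below 0. The median of this marker difference was 2.73 on RFD and 0.65 on HFD at 9 weeks and 2.71 and 2.84 at 22 weeks, in log2 units. It moved with the diet at 9 weeks, so that diet and cell content cannot be told apart in that fit. The part of other cells in the values of Olfm4 and Smoc2 was not tested further.

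Goblet markers had a median log2 fold change of 0.73 at 9 weeks, with 7 of 8 above 0 and Ccl9, a chemokine, with the smallest p (2.23, adjusted p = 0.113), and of 0.87 at 22 weeks, with Tff3, a trefoil peptide, first (0.84, adjusted p = 0.605). Among 12 enterocyte markers, Rbp2, a retinol carrier, rose (1.32, adjusted p = 0.0432) and Ada, adenosine deaminase, fell (-2.12, adjusted p = 0.0432) at 9 weeks. At 22 weeks Rbp2 (1.58, adjusted p = 0.00755) and Mttp, a lipoprotein assembly protein, rose (1.04, adjusted p = 0.0614) and the sugar transporter Slc5a1 fell (-1.36, adjusted p = 0.0233). Of 8 enteroendocrine markers none passed at 9 weeks (smallest p for Gcg, -2.44, adjusted p = 0.391), with 5 of 8 above 0 and a median of 0.29. At 22 weeks the proglucagon gene Gcg fell (-6.20, adjusted p = 0.0279), 0 of 8 were above 0, 6 of 8 were lower at an unadjusted p under 0.05, and the median was -2.24. No share over all genes was computed for that direction. No lymphocyte, eosinophil, M cell or stromal marker passed in edgeR at 9 or 22 weeks. The summed T cell, eosinophil and stromal markers had group medians of at most 22.8 CPM, whereas the M cell sum had medians of 584 and 242 CPM on RFD and HFD at 9 weeks and 528 and 457 CPM at 22 weeks. Most of the M cell sum came from Spib, with means of 508, 272, 483 and 460 CPM in these groups. On HFD this sum was lowest in the libraries with the lowest tuft sums, 31.6 CPM in mouse 80 of the short set and 37.0 CPM in mouse 6 of the long set. Which cells it came from was not tested. The median of Cd3e, which defines T cells, was between 0 and 1.47 CPM in the 4 groups, and the eosinophil gene Epx and the M cell gene Gp2 had medians of 0. T cell markers had medians of -1.31 and -1.30 (6 of 10 tested; smallest p for Cd7 and Gzma). The medians were -0.28 and 0.19 for the 1 eosinophil marker tested, Ccr3, -0.90 and 0.32 for 2 M cell markers (Spib and Ccl20 first), and -0.03 and 0.76 for 3 stromal markers (Col3a1 first).

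No gene listed for the Wnt pathway passed the threshold. Of 31 genes for ligands, receptors, destruction complex members and nuclear factors, 27 were tested and none passed in edgeR at 9 or 22 weeks. At an unadjusted p under 0.05, 2 were higher and 3 lower at 9 weeks, and 0 higher and 4 lower at 22 weeks. Of all genes, 9.73% were higher at that level at 9 weeks and 4.69% at 22 weeks. The share of all genes that were lower was not computed. The median log2 fold change of the 27 genes was -0.27 at 9 weeks and -0.08 at 22 weeks. Dvl1, which relays the signal from Frizzled, had the smallest p at both times (-1.06, adjusted p = 0.172, and -0.81, adjusted p = 0.227). Of 14 other Wnt targets 10 were tested and none passed. At an unadjusted p under 0.05, 3 were higher and 1 lower at 9 weeks, where 9.73% of all genes were higher, and none at 22 weeks. The smallest p belonged to the growth regulator Myc at 9 weeks (1.47, adjusted p = 0.104) and to the cyclin gene Ccnd1 at 22 weeks (1.17, adjusted p = 0.517).

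Most other genes of the crypt base and all listed cell cycle genes had values above 0 at 9 weeks. Of 17 further crypt base genes 15 were tested, 12 had a log2 fold change above 0 and 2 rose, against 2.00% of all genes, Gkn3 (2.65, SE 0.73, adjusted p = 0.0732) and Clca3b (1.41, SE 0.40, adjusted p = 0.0757). At an unadjusted p under 0.05 in edgeR, 6 of the 15 were higher, against 9.73% of all genes, and 1 was lower, Phlda1 (-0.76). Gkn3, a gastrokine of crypt base cells, had a mean of 5.26 CPM on RFD (SD 5.19) against 32.5 CPM on HFD (SD 30.2). Of 16 cell cycle genes all had values above 0 (median 1.25), 11 were higher at an unadjusted p under 0.05, against 9.73% of all genes, and 3 rose. These were the mitotic kinase Aurka (1.35, adjusted p = 0.0816), the microtubule regulator Stmn1 (1.67, adjusted p = 0.0948) and the replicative helicase subunit Mcm7 (1.08, adjusted p = 0.0971). Without the library highest in Paneth markers of each group, adjusted p was 0.0673 for Gkn3, 0.0192 for Clca3b, 0.0146 for Aurka, 0.0316 for Stmn1 and 0.026 for Mcm7. With 1 library left out, Gkn3 passed in 11 of 22 fits, Clca3b and Aurka in 7, and Stmn1 and Mcm7 in 5, and with the marker covariate none of the 5 passed (adjusted p from 0.38 to 0.482). Of 5 genes linked to reserve stem cells 1 was above 0, and Clu had the smallest p (-2.53, adjusted p = 0.214). At 22 weeks no gene of these 3 lists passed, with medians of 0.32 for crypt base genes, 0.65 for cell cycle genes and 0.18 for reserve stem cell genes, and with Phlda1 (-0.59, adjusted p = 0.482), Ube2c (0.94, adjusted p = 0.716) and Hopx (-0.79, adjusted p = 0.360) as the genes of smallest p. In the test of the difference between the sets, the genes of smallest p in these lists and those of the Wnt pathway were Tnks2 (-1.60), Ephb3 (-3.44), Igfbp4 (-1.99), Clu (2.81) and Pcna (-0.90), each with an adjusted p of 1.00. Spearman's rho of Olfm4 with the sum of cell cycle genes was 0.598, and that of Lgr5 was -0.306.

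Covariation between libraries differed among the 10 genes. After the mean of each group was subtracted from the log2 CPM, 37 of the 45 pairs had a Spearman's rho above 0 over the 45 libraries, with a median of 0.356. Olfm4 and Smoc2 formed the closest pair (Spearman's rho 0.899, Pearson's r 0.900), and Olfm4 also followed Slc12a2 (0.657) and Axin2 (0.627). Lgr5 had a median rho of 0.146 with the other 9 genes and was lowest with Cd44 (-0.261), and Prom1 had a median rho of -0.017. The 5 genes outside the list that were most like Olfm4, among 8027 ranked, were Clca3b (0.923), the cell division gene Cdca7 (0.900), the asparagine synthetase gene Asns (0.839), the potassium channel subunit gene Kcne3 (0.836) and the Paneth cell protease gene Mmp7 (0.829). Those most like Lgr5 were Tspan1 (0.696), Khdc4 (0.677), Sh3gl1 (0.671), Hdgfl2 (0.662) and Zmym2 (0.657). For the mean of the 10 genes they were Prelp (0.843), Cdca7 (0.828), Clca3b (0.828), Nupr1 (0.815) and Pnliprp2 (0.805).

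**Figure D4:**
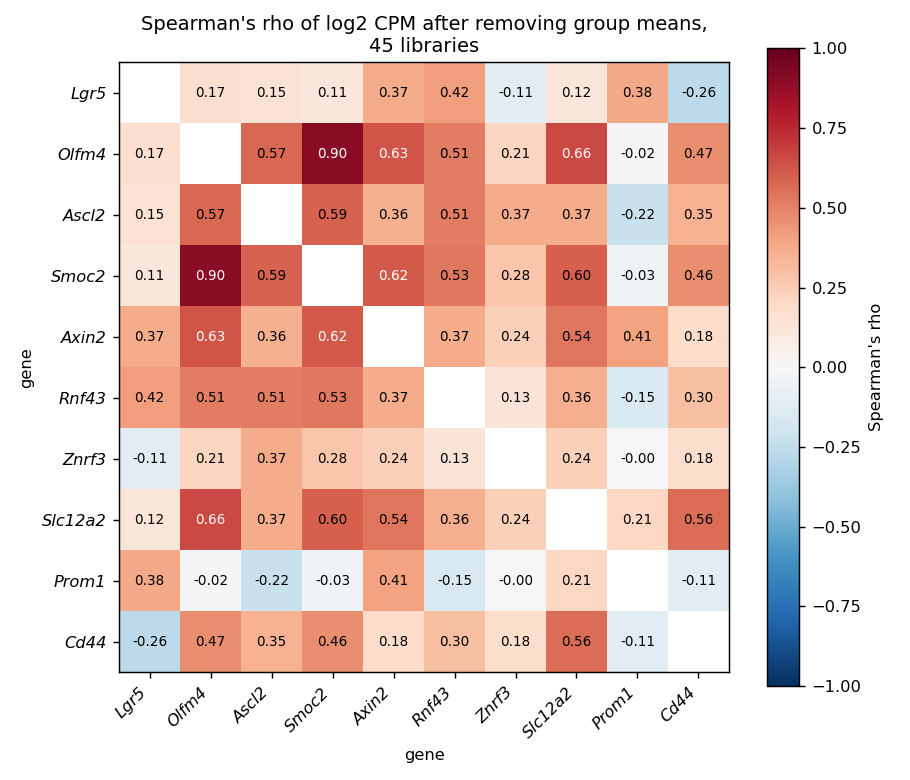
Spearman's rho between each pair of the 10 genes (rows and columns) over 45 libraries, computed from log2 CPM after the mean of each group was subtracted; red is above 0 and blue below. Olfm4 and Smoc2 are the darkest pair at 0.899, while the rows of Lgr5 and Prom1 are pale.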

How the data were processed

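RNA of sorted tuft cells from 45 mice was sequenced in pairs of reads. According to the methods and the submitters' processing notes, the authors trimmed reads with cutadapt 1.15, aligned them to GRCm38 with STAR 2.6.0 and obtained estimated counts and TPM per gene with RSEM. The deposited expected counts, of which 8.79% of values above 0 were not whole, were rounded, and the deposited TPM values were used only to compare levels between genes and in 1 alternative. Another 24 columns of the tables match no sample and were not used, nor were the FPKM files. Symbols were matched for 47224 of 47729 identifiers, and 19 repeated symbols were removed. The 14020 genes tested exceeded 5 reads in 6 or more of all 45 libraries. SEs were derived from the F statistic and the log2 fold change.

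Counts were normalized by TMM and fitted with edgeR 4.0.16 (robust quasi-likelihood, R 4.3.3) in each set, with 1 library per mouse and no covariate. The study's own SAM-seq test and its weighing of counts by estimated cell proportions were not used here. The study also removed markers of other cell types and genes it estimated to be absent from tuft cells. That removal was not made here either. DESeq2 1.42.0 and limma 3.58.1 on log2(TPM + 1) served as alternatives. Log2 CPM used a prior count of 2. The scripts were tested on simulated counts. All 10 genes are named, and from other lists those with an adjusted p under 0.1 or else the smallest p. The 5 nearest genes by rho were taken among genes of mean CPM of at least 10. The 10 genes and all lists were chosen with earlier results of these data known. Depth limits the genes with few reads. The p-values rest on the spread between libraries, in which differences between mice, cell content and depth cannot be told apart. According to the methods mice shared cages, but no mouse is assigned to a cage, so that cagemates were treated as independent.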

Additional observations from a re-analysis of the deposited data

How the results depend on the processing

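No paired analysis was possible because the diet groups of a set share no mouse numbers. Of 700 values of the 10 genes under the alternatives, 632 kept direction and side of the threshold, 32 lost the call, 8 gained it and 28 changed sign; the cause was not tested. The number of the 10 genes called at 9 weeks, 2 with all libraries, was 4 without a filter on low counts, 1 with a batch term for the number series (Smoc2), 1 without libraries under 500000 reads (Smoc2), and 0 with limma on log2(TPM + 1), with the tuft marker covariate and with all 45 libraries in one fit (Olfm4 adjusted p = 0.244, Smoc2 adjusted p = 0.188). It was 3 with DESeq2, 2 without the robust option, 2 without the library highest in Paneth markers of each group (the latter 2 chosen after seeing the data), and 0 to 4 with 1 library left out. At 22 weeks it was 0 throughout. The libraries highest in Paneth markers, called Paneth-high below, are only 1 per group. HFD mice 70 and 8 of the short set, with Paneth markers at 23.9% and 17.7% of the reads, stayed in that fit. Genes called, 466 of 14020 at 9 weeks, were 1534 with DESeq2, 1698 of 32549 without a filter, 9 with limma, 290 without low totals (46.2% higher on HFD, against 60.1% of the 466), 36 with the covariate, 1029 without the Paneth-high libraries and 59 to 1996 with 1 library left out; in one fit there were 684, with 45.3% higher. At 22 weeks the 111 became 351 with DESeq2, 435 of 34543 without a filter (34% higher), 51 with limma, 185 with the series, 231 with the covariate, 297 without the Paneth-high libraries, 63 in one fit and 58 to 667. For the difference between the times the 0 became 65 of 35907 without a filter and 1 without the robust option. Signs changed at 9 weeks for Lgr5 (-0.05) and Prom1 (-0.08) with limma and for Ascl2 (-0.16) and Znrf3 (-0.18) with the covariate, and at 22 weeks for Rnf43 (0.00) with the covariate, Slc12a2 (-0.12 to 0.47) and Znrf3 (-0.43 to 0.00) with 1 library left out. The difference between the times changed sign with limma, which shifts the median of all genes to 0.125, for Olfm4 (0.22), Ascl2 (0.20), Axin2 (0.04) and Cd44 (0.01), with the covariate for Olfm4 (0.92), Ascl2 (0.62), Smoc2 (0.29), Axin2 (0.25) and Cd44 (0.11), and without the Paneth-high libraries for Olfm4 (0.13) and Ascl2 (0.09).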
